A study of Homo sapiens with 6 samples.

Results

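The 52 genes described here encode the machinery of mitosis: the G2/M cyclins with their kinase and phosphatases, the Polo-like and Aurora kinases, the chromosomal passenger complex, the spindle checkpoint, the kinetochore, mitotic kinesins, cytokinesis proteins, condensin, and transcription factors of the G2/M programme. They were chosen by name, by function and not by a measured value, though with earlier results of these data known. All 52 were found among the 58336 gene identifiers of the count tables, and all 52 were among the 15830 genes with enough counts to be tested. The RNA came from 6 libraries of 12Z, an established line of human epithelial cells from endometriosis. In 3 libraries (siBRG1) the cells had received an siRNA against SMARCA4, the gene of the SWI/SNF ATPase BRG1, and in 3 (control) a non-targeting siRNA. Both groups were transfected with 50 nM siRNA, grown in 10% serum, moved to 0.5% serum for the last day and harvested at 72 h, per the labels, whose extraction text also mentions a drug or vehicle step without naming an agent for any sample. The comparison asks how the mitotic transcripts stand when BRG1 is depleted.

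Per the labels the control libraries were reused from a previous deposit, a mark that the siBRG1 libraries lack, so batch and knockdown cannot be told apart for any gene below. Nothing in the labels says that replicates were separate cultures, and p-values therefore rest on a spread among libraries that may be technical only. Levels are given as CPM, a gene's counts scaled to a common library size, on library sizes normalised by the TMM method. Counts assigned to genes ran from 12391161 to 13369692 per siBRG1 library and from 40228678 to 49720320 per control library. SMARCA4 itself stood at 60.5, 78.9 and 50.6 CPM in the siBRG1 libraries and 244, 266 and 262 CPM in the control libraries, with no overlap (adjusted p = 2.67e-04 for a log2 fold change of −2.03, SE 0.161). Of 9 epithelial markers 7 were tested, with 4 called higher (KRT8, EPCAM, CDH1 and CLDN4), 2 lower (KRT19 and KRT7) and KRT18 not called. KRT8, KRT18 and KRT19 were abundant in every library, KRT7 stood at 31.7 to 39.6 CPM in siBRG1 and 185 to 202 CPM in control, EPCAM, CDH1 and CLDN4 lay below 10 CPM, and ESRP1 and GRHL2 were at or near 0. Their sum was 3477 to 3734 CPM in siBRG1 and 3935 to 4021 CPM in control. Summed over 9 fibroblast and stromal markers the level was 3412 to 3629 CPM in siBRG1 and 2491 to 2637 CPM in control. COL1A1 made up most of that sum, at a mean of 2536 CPM in siBRG1 and 1955 CPM in control. Of the 8 tested 7 were called higher (PDGFRB, PDGFRA, DCN, LUM, COL1A1, COL1A2 and ACTA2), where 36.1% of all genes tested were, and THY1 was called lower. ACTA2 was low in both groups, at 2.22 against 0.394 CPM. The part of these markers in the results below was not tested. Endothelial markers summed to at most 21.4 CPM and immune markers to at most 10.6 CPM in any library.

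A cell enters mitosis when CDK1, bound to cyclin B and cleared of inhibitory phosphates by CDC25 phosphatases, becomes active. Polo-like and Aurora kinases then build the spindle, kinetochores attach chromosomes to microtubules, and the checkpoint holds the anaphase-promoting complex until attachment is complete. Most of these genes are transcribed late in the cell cycle, and many of their promoters hold CCAAT boxes, bound by NF-Y, near a cell cycle genes homology region (CHR), the element that the DREAM and MuvB complexes recognise.

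Promoter sequences are given for 4 of the genes that carry both kinds of motif and that moved in different directions, so that the shared elements can be read beside the unlike responses. Each runs 5′ to 3′ on the gene's own strand, from 250 bases before to 50 bases after the RefSeq start, on GRCh38.p14, with matches to TTTGAA or TTCGAA (the CHR letters) and to CCAAT, on either strand, in capitals. The windows are chr10:60778081-60778380 on the plus strand for CDK1, chr10:128126374-128126673 on the minus strand for MKI67, chr16:23678639-23678938 on the plus strand for PLK1 and chr1:43358731-43359030 on the plus strand for CDC20.
CDK1: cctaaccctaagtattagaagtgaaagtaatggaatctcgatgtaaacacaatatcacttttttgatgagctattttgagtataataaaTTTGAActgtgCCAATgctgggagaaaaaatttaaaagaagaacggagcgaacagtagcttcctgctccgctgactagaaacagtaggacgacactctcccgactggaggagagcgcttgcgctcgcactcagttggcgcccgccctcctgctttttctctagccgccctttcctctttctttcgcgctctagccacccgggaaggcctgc
MKI67: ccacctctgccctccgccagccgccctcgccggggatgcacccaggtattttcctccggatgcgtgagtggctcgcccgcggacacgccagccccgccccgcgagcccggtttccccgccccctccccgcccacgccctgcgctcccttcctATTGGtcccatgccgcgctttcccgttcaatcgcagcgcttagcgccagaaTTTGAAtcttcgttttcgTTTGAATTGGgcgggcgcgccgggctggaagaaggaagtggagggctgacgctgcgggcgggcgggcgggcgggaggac
PLK1: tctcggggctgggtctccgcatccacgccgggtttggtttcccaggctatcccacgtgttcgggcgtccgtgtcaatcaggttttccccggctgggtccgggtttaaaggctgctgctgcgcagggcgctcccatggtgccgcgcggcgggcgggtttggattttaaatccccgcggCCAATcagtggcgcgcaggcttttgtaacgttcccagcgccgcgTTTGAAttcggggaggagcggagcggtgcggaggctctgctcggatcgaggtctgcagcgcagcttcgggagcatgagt
CDC20: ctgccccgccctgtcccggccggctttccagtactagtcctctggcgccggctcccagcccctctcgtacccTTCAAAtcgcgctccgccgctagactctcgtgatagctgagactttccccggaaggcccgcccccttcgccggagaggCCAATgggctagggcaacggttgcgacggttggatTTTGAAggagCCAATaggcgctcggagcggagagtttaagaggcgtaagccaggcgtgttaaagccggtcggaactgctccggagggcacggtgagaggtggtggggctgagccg

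In CDK1 the CHR letters start 161 bases before the start site and the CCAAT match 150 bases before it. In PLK1 they begin at 29 and 73 bases upstream. MKI67 holds 2 CHR matches, 47 and 29 bases upstream, the second sharing a base with a CCAAT match on the opposite strand. CDC20 holds 2 of each. RefSeq windows were matched by symbol for 43 of the 52 genes, and 31 of them (72.1%) held the CHR letters, against 11.04% of the 10636 windows of genes tested and 16.6% of all 27305 windows. CCAAT was found in 30 (69.8%), against 36.5% of genes tested and 35.7% of all windows. Both were found together in 23 (53.5%), against 4.68% and 6.58%. A match is a run of letters and not a measured site. Genes with and without the CHR letters both went in either direction. Of the 31 with them 17 fell and 9 rose (median log2 fold change −0.14), and of the 12 without, 4 fell and 4 rose (median 0.02). Of the 30 with CCAAT 18 fell and 7 rose (median −0.17), and of the 13 without it 3 fell and 6 rose (median 0.07). These splits were not tested, and they leave out the genes that had no window.

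The mitotic genes did not move as a block. At an adjusted p under 0.05 (edgeR's quasi-likelihood test, Benjamini-Hochberg over all genes tested), 27 of 52 fell in siBRG1, 16 rose and 9 did not pass. Over all genes tested 36.5% were called lower and 36.1% higher, while the mitotic genes divided into 51.9% lower and 30.8% higher. The median log2 fold change was −0.12, beside −0.01 for all genes tested. With unstranded counts the median of the mitotic genes was −0.03. Most changes were small. Of the 43 genes called, 36 changed by less than 1.5-fold, and 2, CDK1 (higher) and PRC1 (lower), changed by at least 2-fold, where 21.6% of all genes tested did. Among the 4914 genes tested with a mean of at least 50 CPM, a level that 50 of the 52 reach, 8.73% were called at 2-fold or more, 48.5% lower and 36.8% higher at any size. Replicates were tight, with a median coefficient of variation over the 52 genes of 3.32% in siBRG1 and 2.44% in control. CPM did not overlap between the groups for 44 of the 52 genes, against 74.3% of all genes tested. In bulk RNA, fewer cells in G2 or mitosis and less of a transcript per cell cannot be told apart.

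The plot of log2 fold changes by role gives the 52 genes in order, with the single libraries about each estimate.

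**Figure D1:**
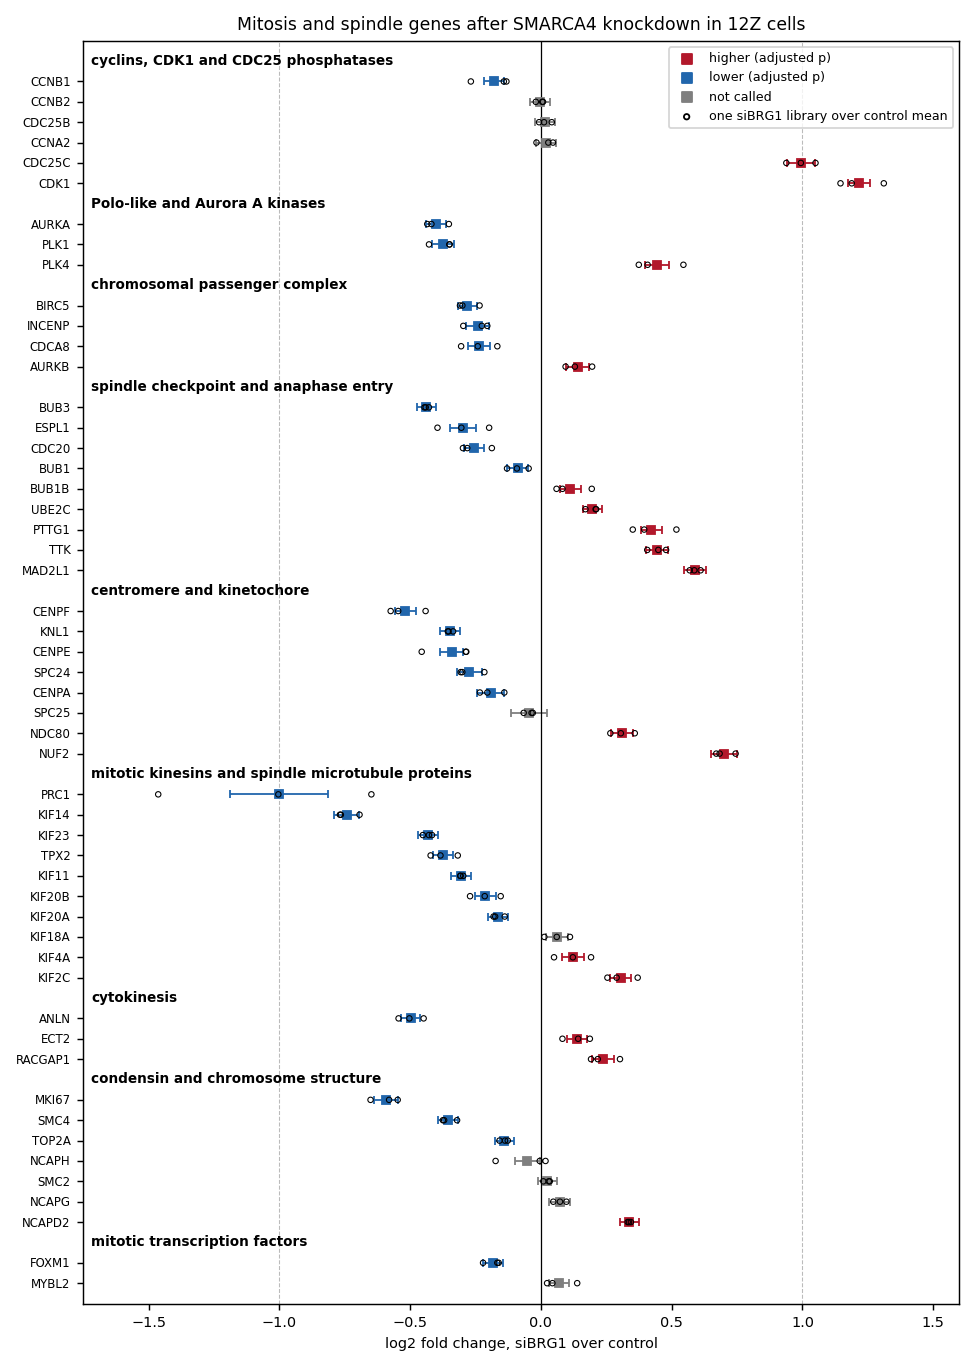
Log2 fold change (siBRG1 over control, horizontal axis) of the 52 mitotic genes by role. Squares give the edgeR estimate with its SE, coloured by call, open circles each siBRG1 library's CPM over the control mean, and dashed lines 2-fold. Every role group with more than 2 genes holds genes on both sides of 0, and CDK1 (1.22) and CDC25C (0.99) lie farthest to the right.

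Summed over the 52 genes, the level was 13109, 13347 and 13253 CPM in the siBRG1 libraries and 14407, 14145 and 14399.9 CPM in the control libraries. That is 1.35, 1.36 and 1.36% of gene counts in siBRG1 and 1.41, 1.38 and 1.39% in control. In the authors' deposited table all 52 genes are listed, with 27 lower and 14 higher at an IHW adjusted p under 0.05. Calls there matched the ones above for 50 genes. BUB1B and KIF4A, called higher here, were the exceptions (IHW adjusted p = 0.329 and 0.137 in the authors' deposited table).

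CDK1, the kinase that drives entry into mitosis (chromosome 10, 60778331 to 60794852, GENCODE 29 on GRCh38, as for the positions below), had the largest rise of the 52 genes. It stood at 443, 496 and 456 CPM in the siBRG1 libraries and 205, 196 and 199 CPM in the control libraries. Every siBRG1 library held more than 2 times the level of any control library, and the means differed 2.32-fold (adjusted p = 1.52e-20 for a log2 fold change of 1.22, SE 0.0412). CDC25C, a phosphatase that activates CDK1 (chromosome 5, 138285265 to 138338355), stood at 85.9, 89.3 and 82.7 CPM in the siBRG1 libraries and 42.9, 41.5 and 45.04 CPM in the control libraries, also without overlap (adjusted p = 5.64e-16 for a log2 fold change of 0.99, SE 0.0529). The related phosphatase CDC25B did not pass the test, at 233, 229 and 226 against 226, 233 and 221 CPM (adjusted p = 0.724 for a log2 fold change of 0.02, SE 0.0380). None of the 3 cyclins that bind CDK1 was called higher. CCNB1, cyclin B1, fell slightly, from 482 ± 10.2 to 425 ± 22.0 CPM (SD, n = 3, adjusted p = 1.92e-04 for a log2 fold change of −0.18, SE 0.0393). Its siBRG1 libraries, at 399.9, 439 and 436 CPM, all lay below the lowest control library at 474 CPM. CCNB2, cyclin B2, stood at 191 ± 2.002 against 192 ± 4.58 CPM and CCNA2, cyclin A2, at 236 ± 5.29 against 233 ± 6.39 CPM. Neither passed the test (log2 fold change −0.003, adjusted p = 0.954 and log2 fold change 0.02, adjusted p = 0.667). After the trends of each library on transcript GC content and length were taken out (trend-corrected values), CDK1 and CDC25C rose by 1.05 and 0.86 on the log2 scale, CCNB1 had −0.27, and CDC25B was called lower at −0.15 (adjusted p = 2.54e-04). With unstranded counts CCNA2 was called higher (log2 fold change 0.14, adjusted p = 0.00161).

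**Figure D2:**
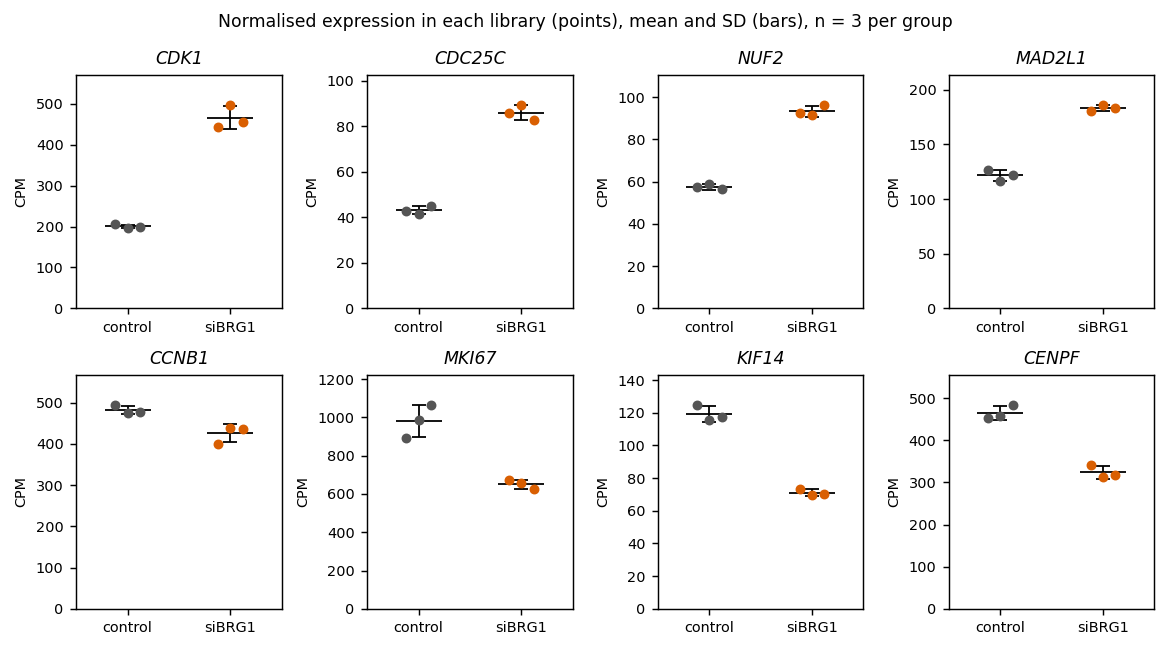
CPM (vertical axes, from 0) of 8 mitotic genes in each control and siBRG1 library, with mean and SD, n = 3 per group. CDK1, CDC25C, NUF2 and MAD2L1 are higher in every siBRG1 library, and CCNB1, MKI67, KIF14 and CENPF lower, with the widest spread among the control libraries of MKI67 (893 to 1063 CPM).

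The kinases that mature centrosomes and build the spindle fell, while the kinase of centriole duplication rose. PLK1, Polo-like kinase 1, stood at 123, 117 and 123 CPM in the siBRG1 libraries and 154, 158 and 158 CPM in the control libraries (adjusted p = 5.02e-09 for a log2 fold change of −0.38, SE 0.0419). AURKA, Aurora A, fell by a similar amount, at 219, 222 and 232 against 301, 288 and 301 CPM (adjusted p = 2.50e-10 for a log2 fold change of −0.40, SE 0.0386). For both, each siBRG1 library lay below each control library. PLK4, which starts centriole duplication, stood at 137, 151 and 134 against 105, 102 and 103 CPM, higher in all 3 siBRG1 libraries (adjusted p = 1.06e-09 for a log2 fold change of 0.44, SE 0.0458).

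The chromosomal passenger complex corrects faulty attachments and takes Aurora B to the centromere. Its scaffold INCENP, survivin (BIRC5) and borealin (CDCA8) all fell (log2 fold changes −0.24, −0.28 and −0.24 with SE of 0.0436, 0.0378 and 0.0433). BIRC5 stood at 237, 248 and 235 against 286, 292 and 297 CPM, INCENP at 109, 115 and 116 against 130.2, 138 and 135 CPM, and neither overlapped. AURKB, the kinase itself, was at 129.6, 126 and 136 against 120.3, 117 and 118 CPM and was called higher (adjusted p = 0.00469 for a log2 fold change of 0.14, SE 0.0428). That direction depended on the processing: after trend correction AURKB was called lower, at −0.21 (adjusted p = 6.20e-05), while INCENP and CDCA8 had −0.42 and −0.37. The call was also lost with no filter on low counts (adjusted p = 0.0841) and on leaving out control replicate 2 (0.0508).

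Checkpoint and anaphase genes divided 5 higher to 4 lower, where 36.1% of all genes tested were called higher and 36.5% lower. MAD2L1, the checkpoint protein MAD2 that sequesters CDC20 (chromosome 4, 120055608 to 120067074), rose most, at 181, 186 and 183 CPM in the siBRG1 libraries and 126, 117 and 122 CPM in the control libraries (adjusted p = 3.64e-13 for a log2 fold change of 0.59, SE 0.0417). TTK, the MPS1 kinase that starts checkpoint signalling, rose with 201, 212 and 207 against 159, 149 and 148 CPM (log2 fold change 0.44, SE 0.0408). BUB3, the adaptor that brings BUB1 and BUBR1 to kinetochores, fell most, with 213, 215 and 213 against 295, 286 and 287 CPM (adjusted p = 1.64e-11 for a log2 fold change of −0.44, SE 0.0370). For these 3 genes the siBRG1 and control libraries did not overlap. BUB1 and BUB1B, which encodes BUBR1, changed by less than 10%, at 203 ± 5.84 against 216 ± 4.92 CPM (adjusted p = 0.0413 for a log2 fold change of −0.09, SE 0.0389) and 170.2 ± 8.61 against 157 ± 2.47 CPM (adjusted p = 0.0180 for a log2 fold change of 0.11, SE 0.0420). Both calls were fragile. That of BUB1 was lost with unstranded counts (adjusted p = 0.450), on trend correction (0.500), with at least 50 counts required in 3 libraries, the stricter filter (0.0803), and with the replicate number as a block (0.0618). It was lost too on leaving out siBRG1 replicate 2 or 3 or control replicate 1 or 3, at 0.0526 to 0.137. That of BUB1B was lost with the DESeq2 test (adjusted p = 0.0628), unfiltered (0.218), among protein-coding genes alone (0.124) and on leaving out siBRG1 replicate 3 or control replicate 2 or 3 (0.106 to 0.143).

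Downstream of the checkpoint, CDC20, the activator of the anaphase-promoting complex, fell, at 234, 231 and 249.7 CPM in the siBRG1 libraries and 279, 286 and 288 CPM in the control libraries (adjusted p = 1.25e-06 for a log2 fold change of −0.26, SE 0.0388). UBE2C, the ubiquitin-conjugating enzyme of that complex, rose, at 227, 233 and 233 against 200.3, 199 and 205 CPM (adjusted p = 3.47e-05 for a log2 fold change of 0.20, SE 0.0375). Securin and separase also parted. PTTG1, securin, the inhibitor that the complex destroys, rose with 235, 256 and 228 against 183, 177 and 177 CPM (log2 fold change 0.42, SE 0.0418), and ESPL1, separase, the protease it holds back, fell with 87.9, 82.5 and 94.6 against 105, 109 and 111 CPM (log2 fold change −0.30, SE 0.0493). Trend-corrected log2 fold changes were −0.66 for CDC20, 0.30 for UBE2C, −0.16 for BUB3 and 0.17 for BUB1B, each on the same side of 0.

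At the centromere and kinetochore 5 genes fell, 2 rose and SPC25 did not pass. Of all genes tested 36.5% were called lower and 36.1% higher. CENPF, a large protein of the outer kinetochore (chromosome 1, 214603195 to 214664588), stood at 342, 312 and 318 CPM in the siBRG1 libraries and 453, 458 and 483 CPM in the control libraries, with each siBRG1 library below each control library (adjusted p = 2.60e-12 for a log2 fold change of −0.52, SE 0.0402). CENPE, a kinesin that moves chromosomes to the spindle equator, fell with 211, 238 and 238 against 298, 281 and 290.1 CPM (log2 fold change −0.34, SE 0.0429), and KNL1, the scaffold that binds BUB proteins, with 171, 173 and 171 against 219, 211 and 225 CPM (log2 fold change −0.35, SE 0.0394). CENPA, the histone H3 variant that marks centromeres, fell from 67.3 ± 0.625 to 58.9 ± 1.96 CPM (adjusted p = 0.00143 for a log2 fold change of −0.19, SE 0.0512). An adjacent gene model, SLC35F6, overlaps CENPA on its strand. Reads shared by overlapping genes are set aside in these counts, so the values of CENPA rest on unshared reads. SLC35F6 stood at 43.3, 39.2 and 39.4 CPM in the siBRG1 libraries and 84.8, 84.3 and 87.8 CPM in the control libraries. Its part in the CENPA values was not tested. The log2 fold changes of the centromere and kinetochore genes moved with the trend correction. Trend-corrected, CENPF was at −0.16, CENPA at −0.44, and CENPE at −0.06 (adjusted p = 0.257) and KNL1 at −0.01 (adjusted p = 0.801) were no longer called.

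The NDC80 complex, the rod that grips microtubules, is built of a pair of dimers, and the genes of one dimer rose while those of the other did not. NUF2 and NDC80, which form the microtubule-binding end, rose. NUF2 (chromosome 1, 163266576 to 163355764) stood at 92.3, 91.5 and 96.3 CPM in the siBRG1 libraries and 57.3, 58.8 and 56.4 CPM in the control libraries (adjusted p = 2.18e-13 for a log2 fold change of 0.70, SE 0.0485), and NDC80 at 139, 143 and 148 against 120.1, 112 and 115 CPM (adjusted p = 3.40e-07 for a log2 fold change of 0.31, SE 0.0435). SPC24, of the dimer at the kinetochore end, fell with 76.1, 80.98 and 76.4 against 95.5, 95.99 and 90.8 CPM (adjusted p = 1.08e-05 for a log2 fold change of −0.27, SE 0.0481). SPC25, its partner, stood at 25.7, 26.3 and 26.3 against 27.5, 26.2 and 27.03 CPM and did not pass (adjusted p = 0.570 for a log2 fold change of −0.05, SE 0.0700). After trend correction SPC24 and SPC25 were both called lower, at −0.48 and −0.24 (adjusted p = 0.00256), and NUF2 and NDC80 were still higher at 0.55 and 0.22.

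Of 10 kinesin and spindle microtubule genes 7 fell, 2 rose and KIF18A did not pass. Over all genes tested 36.5% were called lower and 36.1% higher. Among those with a mean of at least 50 CPM the shares were 48.5% and 36.8%. KIF14, a kinesin of the midbody (chromosome 1, 200551497 to 200620734), fell 1.67-fold, at 73.6, 69.8 and 70.03 CPM in the siBRG1 libraries and 124, 115 and 117 CPM in the control libraries (adjusted p = 5.01e-14 for a log2 fold change of −0.74, SE 0.0482). No library overlapped, and the log2 fold change was −0.51 after trend correction. KIF23, the kinesin of centralspindlin, had 276, 271 and 278 against 379.6, 361 and 372 CPM (log2 fold change −0.43, SE 0.0370). TPX2, which activates Aurora A on spindle microtubules, had 433, 444 and 465 against 585, 579 and 576 CPM (log2 fold change −0.37, SE 0.0371). KIF11, the motor that pushes spindle poles apart, KIF20B and KIF20A, both motors of the central spindle and cytokinesis, fell less (log2 fold changes −0.30, −0.21 and −0.17 with SE of 0.0375, 0.0399 and 0.0374), with no overlap between groups. KIF20B was at −0.09 after trend correction. The risers were smaller. KIF2C, the microtubule depolymerase MCAK, rose with 232, 251 and 238 against 198, 193 and 192 CPM (log2 fold change 0.30, SE 0.0393), and KIF4A, the chromokinesin, with 182, 192 and 201 against 178, 174 and 176 CPM (adjusted p = 0.00959 for a log2 fold change of 0.12, SE 0.0410). The KIF4A call was lost unfiltered (adjusted p = 0.144), among protein-coding genes alone (0.0775), and on leaving out siBRG1 replicate 3 or control replicate 2 or 3 (0.0555 to 0.0818). KIF18A, which damps chromosome oscillations, stood at 144 ± 4.88 against 138 ± 1.76 CPM (adjusted p = 0.184 for a log2 fold change of 0.06, SE 0.0415). It was called higher with unstranded counts (log2 fold change 0.12, adjusted p = 0.0131) and after trend correction (log2 fold change 0.11, adjusted p = 0.0166).

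PRC1, the cross-linker of the central spindle (chromosome 15, 90966038 to 90995629), was read at very low counts. It stood at 2.70, 3.45 and 1.96 CPM in the siBRG1 libraries and 5.77, 5.53 and 4.92 CPM in the control libraries (adjusted p = 2.42e-05 for a log2 fold change of −1.002, SE 0.186), on 25 to 44 counts per siBRG1 library. Leaving out siBRG1 replicate 2 gave −1.21 on the log2 scale, and leaving out siBRG1 replicate 3 gave −0.82. A protein-coding model on the same strand, AC068831.7, overlaps PRC1, and this layout of counts sets reads shared by overlapping genes aside as ambiguous. The values of PRC1 therefore rest on the reads that no other model shares, and its total level is not measured here. AC068831.7 itself held 529 counts in siBRG1 and 2074 in control, summed over each group, from libraries of unlike size. Scaled to library size it stood at 12.6, 13.1 and 14.8 CPM in the siBRG1 libraries and 17.1, 15.2 and 16.0 CPM in the control libraries. Of the 52 genes, 10 overlap another model on their own strand and 25 one on the opposite strand.

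Among genes of cytokinesis, ANLN, the anillin that scaffolds the contractile ring (chromosome 7, 36389806 to 36453791), fell at 703, 729.8 and 683 CPM in the siBRG1 libraries and 1010.3, 996 and 982 CPM in the control libraries (adjusted p = 1.12e-12 for a log2 fold change of −0.50, SE 0.0372). ECT2, the exchange factor that activates RhoA at the cell equator, and RACGAP1, the centralspindlin subunit that recruits it, rose slightly. RACGAP1 had 263, 279 and 259 against 236, 221 and 222 CPM (adjusted p = 6.93e-06 for a log2 fold change of 0.24, SE 0.0403), and ECT2 319, 306 and 329.5 against 295, 286 and 288 CPM (adjusted p = 0.00198 for a log2 fold change of 0.14, SE 0.0378). In all 3 genes the groups lay apart. The ECT2 call was lost with no count filter (adjusted p = 0.0506).

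Of the 5 condensin I subunits, which compact chromosomes, 1 rose, 1 fell and 3 did not pass. The shares over all genes tested were 36.1% higher and 36.5% lower. NCAPD2 was the one that rose, at 621, 623 and 626 CPM in the siBRG1 libraries and 486, 491 and 503 CPM in the control libraries (adjusted p = 1.66e-09 for a log2 fold change of 0.34, SE 0.0356), and SMC4 the one that fell, at 568, 547 and 549 against 730.4, 684 and 713 CPM (adjusted p = 1.59e-09 for a log2 fold change of −0.36, SE 0.0374), both without overlap. NCAPG, NCAPH and SMC2 did not pass, with 208 ± 3.63 against 198 ± 7.47 CPM, 135 ± 9.58 against 140.0 ± 3.78 CPM and 326 ± 3.01 against 321 ± 9.35 CPM (log2 fold change 0.07, −0.05 and 0.02, adjusted p = 0.105, 0.323 and 0.570). NCAPG and SMC2 were called higher after trend correction (log2 fold change 0.13 and 0.15). NCAPG was also called with unstranded counts (0.25, adjusted p = 4.03e-06) and under the stricter count filter (adjusted p = 0.0499).

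MKI67 (chromosome 10, 128096659 to 128126385) encodes the proliferation marker Ki-67, a coat of mitotic chromosomes, and stood at 671, 656 and 624 CPM in the siBRG1 libraries and 893, 984 and 1063 CPM in the control libraries (adjusted p = 1.53e-11 for a log2 fold change of −0.59, SE 0.0473). Even its highest siBRG1 library was below its lowest control library, and the fitted difference between the groups was a 1.51-fold fall. TOP2A, topoisomerase II alpha, which untangles sister chromatids, fell less, with 1032, 1039 and 1017 against 1165, 1099.9 and 1139.7 CPM (adjusted p = 0.00118 for a log2 fold change of −0.14, SE 0.0367). The trend-corrected value of MKI67 was −0.27 and that of TOP2A −0.03 (adjusted p = 0.474), no longer called. Of the transcription factors, FOXM1, the forkhead activator of G2/M genes, fell from 315 ± 2.14 to 278 ± 6.32 CPM (adjusted p = 6.50e-05 for a log2 fold change of −0.18, SE 0.0367). MYBL2, B-MYB, which joins MuvB on late cell cycle promoters, stood at 350.1, 379 and 355 against 334, 349 and 350.0 CPM and did not pass (adjusted p = 0.109 for a log2 fold change of 0.07, SE 0.0387), although the groups did not overlap. Both depended on the processing. FOXM1 lies over RHNO1 and ITFG2 on the opposite strand, and with unstranded counts its call was lost (log2 fold change −0.03, adjusted p = 0.430), while after trend correction it was −0.31. MYBL2 was called lower after trend correction, at −0.15 (adjusted p = 2.58e-04), and higher with unstranded counts (0.13, adjusted p = 0.00458), under the stricter count filter (0.08, adjusted p = 0.0497) and on leaving out siBRG1 replicate 1 (0.09, adjusted p = 0.0497).

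Some genes whose proteins work together changed alike, as INCENP, BIRC5 and CDCA8 or AURKA and TPX2 did, and others did not. For 10 pairs of the second kind the ratio was taken within each library, free of the scaling between libraries. The trends on transcript GC content and length were not taken out of these ratios. CDC25C and CDC25B, counted among these pairs, are related phosphatases rather than partners. The pairs were picked for their difference after the values were seen, so the ratios are a description with no test. The log2 ratio of CDK1 to CCNB1 went from −1.27 ± 0.00483 in control to 0.13 ± 0.0585 in siBRG1 (SD, n = 3). That of MAD2L1 to BUB3 went from −1.25 ± 0.0393 in control to −0.22 ± 0.0122 in siBRG1, and that of NUF2 to SPC24 from −0.71 ± 0.0250 in control to 0.26 ± 0.0804 in siBRG1. Securin over separase (PTTG1 to ESPL1) went from 0.72 ± 0.0650 in control to 1.44 ± 0.183 in siBRG1. Between the centralspindlin subunits, RACGAP1 over KIF23 went from −0.71 ± 0.0302 in control to −0.04 ± 0.0757 in siBRG1, and within condensin NCAPD2 over SMC4 from −0.52 ± 0.0568 in control to 0.17 ± 0.0350 in siBRG1. In each of the 10 pairs the gene with the higher log2 fold change was put first, which fixed the direction of the shift in advance. The ratios of the siBRG1 libraries did not overlap those of the control libraries in any pair.

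**Figure D3:**
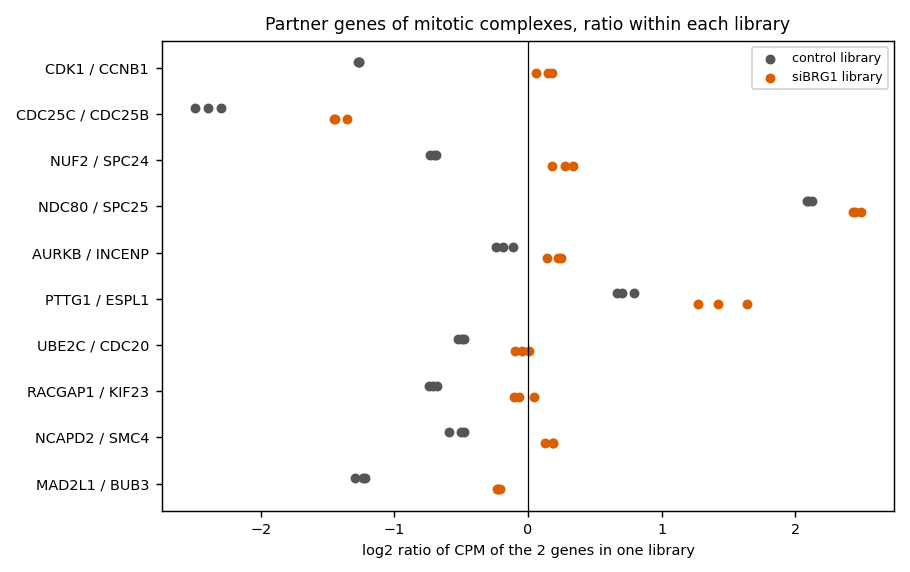
Log2 ratio of the CPM of 2 partner or related genes within a library (horizontal axis), for 10 pairs, in control (grey) and siBRG1 (orange) libraries, one point per library. The gene with the higher log2 fold change is put first in each pair, which fixes the direction. The 3 orange points lie to the right of the 3 grey points in every pair, farthest for CDK1 over CCNB1 (a shift of 1.40).

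Log2 fold changes were lower for long transcripts than for short ones. Over the 52 genes the log2 fold change and the longest annotated transcript had a Spearman correlation of −0.44, a description across genes that share the same 6 libraries, beside −0.07 over the 15811 genes tested with a length. Of 13 genes with a transcript of at least 5000 bases 10 fell and 2, MAD2L1 and NCAPD2, rose (median log2 fold change −0.34). The 14 genes with a transcript under 2500 bases divided into 6 that fell and 7 that rose (median 0.05). Trend-corrected, these medians were −0.09 and −0.22, and the correlation was −0.09. The correction takes out trends on GC content and length together, so its shifts cannot be put down to length alone. Log2 fold change and transcript GC content had a Spearman correlation of −0.06 over the 52 genes and 0.19 over all genes tested with a length. The correction raised the log2 fold change of 11 of the 13 long transcripts, all but ESPL1 and NCAPD2, and lowered that of 13 of the 14 short ones, all but UBE2C. After it 27 genes were called lower and 18 higher, of which 23 and 15 had the same call as counted. The groups also differed in read make-up: reads assigned to no gene feature made up 3.97 ± 0.194% of reads in the siBRG1 libraries, against 13.3 ± 0.415% in control (SD, n = 3). The part of this difference in the results was not tested.

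**Figure D4:**
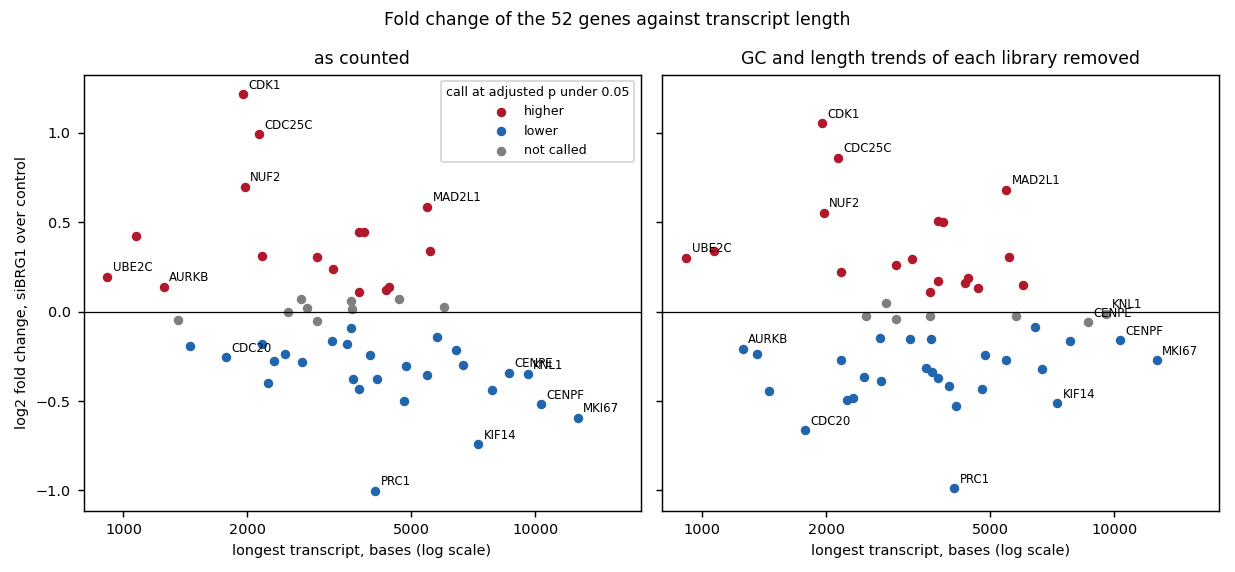
Log2 fold change (siBRG1 over control) of the 52 mitotic genes against their longest transcript (bases, log scale), as counted (left) and trend-corrected (right), coloured by call. On the left the longest transcripts lie below 0 (MKI67 at −0.59, CENPF at −0.52), and on the right they lie nearer to it (−0.27 and −0.16), while CDK1 keeps the highest value in both.

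Levels were compared between genes per kilobase of annotated exon (RPKM from the normalised CPM). In control the most abundant were CCNB1 (188 RPKM), TOP2A (176), ANLN (166), TPX2 (161) and UBE2C (157). In siBRG1 the order was UBE2C (179.6 RPKM), CCNB1 (166), TOP2A (159.9), MYBL2 (130.2) and TPX2 (124). CDK1 moved from rank 25 of 52 (50.9 RPKM) to rank 7 (118 RPKM). MKI67 moved from rank 13 (76.6 RPKM) to rank 24 (50.8 RPKM). After PRC1, the lowest levels were those of ESPL1 (12.2 RPKM in control) and KIF14 (9.78 RPKM in siBRG1).

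Other genes of mitosis were counted from lists drawn up by function, with earlier results of these data known and without a test of the lists. Beside each count stand the shares over all genes tested, 36.1% called higher and 36.5% lower. Of 32 further kinetochore and centromere genes 14 rose and 11 fell, from CENPQ of the inner kinetochore (104, 112 and 108 against 49.4, 48.7 and 49.6 CPM, log2 fold change 1.13, SE 0.0485) to SKA1 of the outer kinetochore (12.2, 11.1 and 13.3 against 23.7, 22.8 and 20.8 CPM, log2 fold change −0.88, SE 0.0931). With unstranded counts 7 of them fell. Of 33 further spindle and cytokinesis genes 11 rose and 13 fell. Highest was HAUS4, an augmin subunit read at a mean of only 147 counts (9.40, 12.1 and 11.1 against 3.52, 3.34 and 3.83 CPM, log2 fold change 1.61, SE 0.139). Lowest was ARHGAP11A, a GTPase-activating protein (37.1, 34.7 and 35.6 against 82.5, 85.8 and 82.99 CPM, log2 fold change −1.23, SE 0.0549). Entry regulators were 9 higher and 6 lower of 16. CKS1B, a small CDK-binding protein, rose (log2 fold change 0.85, SE 0.0504) and PKMYT1, the kinase that places inhibitory phosphates on CDK1, fell (log2 fold change −0.54, SE 0.0611). Of 9 centriole genes 7 were called lower, where 36.5% of all genes tested were, with PCNT, pericentrin, lowest (log2 fold change −0.70, SE 0.0435). That count was 6 after trend correction, with unstranded counts and on leaving out siBRG1 replicate 1 or 3 or control replicate 1 or 3. CDK5RAP2 was the 1 that rose, by a log2 fold change of 0.09 that passed narrowly (adjusted p = 0.0445) and was lost under 10 of the 15 alternatives (adjusted p = 0.0557 to 0.420).

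Condensin II and cohesin genes were 7 higher and 8 lower of 18, where 36.1% of all genes tested were called higher and 36.5% lower. NCAPH2, a condensin II subunit, was up (log2 fold change 0.94, SE 0.0465) and WAPL, which releases cohesin, down (log2 fold change −0.67, SE 0.0404). Subunits and partners of the anaphase-promoting complex were 8 higher and 6 lower of 17, with its RING subunit ANAPC11 up (log2 fold change 1.16, SE 0.0501) and its scaffold ANAPC1 down (log2 fold change −0.73, SE 0.0562). Trend-corrected, 5 were higher. In the DREAM and MuvB complex, RBL2 (p130), LIN52, LIN9 and TFDP2 rose and RBL1 (p107), MYBL1, LIN54, TFDP1 and RBBP4 fell. RBL2, the pocket protein typical of resting cells, stood at 89.8, 98.9 and 83.7 against 54.3, 53.7 and 53.5 CPM (adjusted p = 5.17e-13 for a log2 fold change of 0.75, SE 0.0542), and RBL1, that of cycling cells, at 59.2, 56.99 and 57.5 against 89.96, 92.3 and 91.6 CPM (adjusted p = 1.15e-12 for a log2 fold change of −0.66, SE 0.0490). Of the 3 NF-Y subunits NFYB and NFYC rose (0.86 and 0.35) and NFYA fell (−0.45).

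Genes of earlier cell cycle phases are set beside these. Of 40 DNA replication genes 24 rose and 11 fell (median 0.21 on the log2 scale), from POLD1, a replicative polymerase gene (log2 fold change 0.90, SE 0.0513), to UHRF1, which maintains DNA methylation at forks (log2 fold change −0.99, SE 0.0404). Of 22 G1 genes 11 rose and 6 fell, where 36.1% of all genes tested were called higher and 36.5% lower. Besides CDK inhibitors, CCNE2, E2F1, CDK4 and CDK2 rose (log2 fold changes 0.94, 0.84, 0.50 and 0.41). Those that fell were CCND1, CCND3, CDK6, E2F3, E2F8 and SKP2. CCND1, cyclin D1, fell, with 151, 127 and 135 against 552, 563 and 577 CPM (adjusted p = 1.18e-24 for a log2 fold change of −2.03, SE 0.0467), and CDKN1A, the CDK inhibitor p21, rose with 82.9, 86.8 and 86.1 against 31.1, 32.7 and 27.9 CPM (adjusted p = 7.22e-19 for a log2 fold change of 1.48, SE 0.0589). All 7 CDK inhibitor genes of the list rose, 6 of them by log2 fold changes of 0.48 (CDKN1B, p27) to 1.48 (CDKN1A). The other, CDKN1C (p57), was read at a mean of only 18 counts, with 2.11, 1.96 and 1.33 against 0.185, 0.510 and 0.199 CPM (log2 fold change 2.61, SE 0.404). The difference between these lists and the mitotic genes was not tested.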

How the data were processed

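RNA of 12Z cells was measured in 3 siBRG1 and 3 control libraries made with a directional mRNA kit, per the labels. For each library the authors deposited raw counts per gene, unstranded and for either strand, and the stranded column with the larger total was used. Build GRCh38.p12 and the tools STAR, DESeq2, FastQC, cutadapt and Trim Galore stand in the submitters' processing notes, with no version. Their annotation was not given in sources used here. Among 58336 identifiers 56888 matched GENCODE 29 with their version and 58216 without. Per the file headers, the authors' table of the comparison holds a mean signal over libraries, log2 fold changes with standard errors, a test statistic and a weight (scores), and p-values with IHW adjusted forms. Entries that name no gene stayed out of library sizes and tests, and the shares of unmapped and multimapping reads were 1.84% and 20.3% in siBRG1 and 1.64% and 9.81% in control.

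The 52 genes and all lists were chosen with earlier results of these data known. All genes were fitted with edgeR 4.0.16 in R 4.3.3 (TMM, filterByExpr, robust quasi-likelihood test, group as the only term), and p-values of the 15830 genes tested were adjusted by Benjamini-Hochberg, with a threshold of 0.05. SE is the absolute log2 fold change over the square root of F. RPKM is CPM per kilobase of the exon union. Genes are named by a rule: in each role group the 2 largest falls and the 2 largest rises among called genes that average 50 counts or more, a set of core genes, SMARCA4, and members that did not pass. Further members of each group are given as well, chosen after their values were seen. No replicates were merged, since all pairs within a group varied beyond counting error (chi-square over its degrees of freedom 2.64 to 4.55). Alternatives were DESeq2 size factors, the DESeq2 1.42.0 Wald test, no filter, a filter of 50 counts in 3 libraries, unstranded counts, GC and length trends removed (smooth offsets per library, mgcv 1.9.3), protein-coding genes alone, a replicate block with and without that removal, and each library left out.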

Additional observations from a re-analysis of the deposited data

Results flagged for a closer look

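Counts on the antisense strand entered the results above only as part of the unstranded counts. At 3 of the 52 genes they stood in every siBRG1 library at 2 or more times the highest control library. At SPC24 the antisense level was 45.4 CPM in siBRG1 and 9.26 CPM in control. At NCAPD2 it was 46.1 against 21.4 CPM. That gene passed narrowly, with its lowest siBRG1 library at 44.4 CPM and its highest control library at 22.1 CPM. The opposite-strand MRPL51 stood at 207 to 214 against 172 to 185 CPM on the TMM scale, so its levels are not directly comparable. At NCAPH it was 0.866 against 0.318 CPM, on only 10, 11 and 12 counts in the siBRG1 libraries. The part of genes on the opposite strand in these antisense levels was not tested.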

How the results depend on the processing

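Of the 52 mitotic genes 36 had the same call under all 15 alternatives, among them 22 of the 27 lower and 12 of the 16 higher, and over the alternatives 25 to 27 were lower and 12 to 20 higher. With GC and length trends removed, with and without the replicate block, AURKB turned to −0.21, CDC25B to −0.15 and MYBL2 to −0.15. The median log2 fold change of −0.12 was −0.13 with DESeq2 size factors, −0.13 with the DESeq2 Wald test, −0.16 with no count filter, −0.034 with unstranded counts and −0.16 with protein-coding genes alone, and −0.15 to −0.11 with single libraries left out. With no filter the median of all genes was −0.30. The cause was not tested. Leaving out a library changed the call of 5 genes, AURKB, BUB1, BUB1B, KIF4A and MYBL2. Under the replicate block 26 were lower and 16 higher (median −0.12), and with the trends removed as well 27 and 18. Deviations of same-numbered libraries correlated at −0.0126 to 0.0220, so the numbers do not pair the libraries. At 2-fold or more, in place of 2 genes, 1 was called with the trends removed and without siBRG1 replicate 1 or control replicate 1, and 3 without control replicate 3. With 3 libraries per group an exact permutation test of 1 gene cannot go below p = 0.1. The smaller siBRG1 libraries limit precision at low counts, as for PRC1.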
